A study of Homo sapiens with 4 samples.

Results

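Collagens and the interstitial matrix proteins that surround them were followed in SCC13 cells, an established human line derived from a skin squamous cell carcinoma. The members were chosen by gene name from the deposited count table: every row with a collagen chain symbol except COL17A1, plus 20 named matrix genes. The rule found 63 genes (43 collagen chains and 20 named genes) among the 60617 rows, and 42 of them (25 chains and 17 named genes) passed the filter on low counts that left 15171 genes to be tested. The CELF2-KD group held 2 libraries of cells infected with a lentivirus that expressed an shRNA against CELF2, an RNA-binding protein that acts on splicing and mRNA stability. The control group held 2 libraries of cells infected with a lentivirus that expressed a scrambled shRNA. All 4 came from 1 line with the genotype label WT, grown in CnT-07 medium, and polyA RNA was sequenced. The sources used here do not give whether both CELF2-KD libraries carried the same shRNA sequence, or came from separate cultures. The p-values therefore rest on the spread between these libraries alone, and that spread may be technical.

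Collagens are trimers of chains with glycine-rich repeats. Fibrillar collagens form the load-bearing fibers of the dermis, type IV collagen forms the sheet of the basement membrane, and type VII collagen forms the fibrils that anchor the epidermis to the dermis. In skin, fibroblasts make most of the fibrillar collagen, while keratinocytes supply type VII and part of type IV. Before the chains leave the cell, prolyl and lysyl hydroxylases modify them, and outside the cell lysyl oxidases crosslink them. Fibronectin, thrombospondins, tenascins and SPARC regulate how cells attach to this matrix.

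The libraries held 19928788 and 23177056 counts in the CELF2-KD group and 27898889 and 17649090 counts in the control group. For a floor of 3 counts per library, a count of 0 therefore allows up to 0.151 and 0.129 CPM (counts scaled to library size) in the CELF2-KD libraries. In the control libraries it allows up to 0.108 and 0.170 CPM. These floors use the total counts alone, while the printed CPM levels are also scaled by TMM. The targeted gene did not check the labels: CELF2 had 0 counts in both CELF2-KD libraries, against 1 and 0 counts in the control libraries. Keratinocyte markers marked the cells as labelled, with all 12 tested and at least 1392 counts each in every library. Their summed level was 29575 and 21230 CPM in the CELF2-KD libraries, against 13986 and 21803 CPM in the control libraries. Of 14 fibroblast markers, which none of the members is, DCN, LUM, DPT and THY1 had 0 counts in all 4 libraries. The summed level of the fibroblast list was 57.8 and 64.1 CPM in the CELF2-KD libraries, against 34.3 and 66.8 CPM in the control libraries. S100A4, a calcium-binding protein that carcinoma cells also make, was the 1 fibroblast marker that passed, with 14.5 and 13.8 CPM in the CELF2-KD libraries and 4.11 and 4.57 CPM in the control libraries (log2 fold change 1.70, adjusted p = 0.0483 by edgeR). The defining markers of melanocytes (TYR, SOX10 and MLANA) and of immune cells (PTPRC and CD3E) were also at 0 in every library, and the endothelial list summed to 1.83 and 2.23 CPM in the CELF2-KD libraries, against 0.679 and 0.356 CPM in the control libraries. The part of these markers in the results was not tested.

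Promoter sequence from RefSeq (GRCh38.p14) matched 49 of the 63 members by symbol. The 250 bases before the gene start are shown for 3 chains or fibers with both CELF2-KD libraries above both control libraries (COL5A3, COL8A2 and FBN2). None of these 3 passed the threshold in the comparison below (adjusted p = 0.0521, 0.165 and 0.266 by edgeR). The same bases are also shown for 2 abundant members whose groups overlapped (COL7A1 and THBS1). The last window is that of COL4A5, which faces COL4A6 across a common start region. None of the 6 windows overlaps an exon in GENCODE v29, and the FBN2 window lies in introns of other FBN2 transcripts and of SLC27A6 on the opposite strand. Capitals mark matches, on either strand, to TATAAA (the TATA box), CCAAT (the CCAAT box) and GGGCGG (the GC box that Sp1 binds). Matches to 1 motif may overlap each other.
COL5A3, chr19:10010505-10010754, minus strand: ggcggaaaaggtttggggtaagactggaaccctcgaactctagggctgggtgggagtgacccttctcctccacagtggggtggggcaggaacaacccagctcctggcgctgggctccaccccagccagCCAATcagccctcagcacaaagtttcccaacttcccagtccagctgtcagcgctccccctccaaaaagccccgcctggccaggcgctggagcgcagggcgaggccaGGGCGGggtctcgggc
COL8A2, chr1:36125223-36125472, minus strand: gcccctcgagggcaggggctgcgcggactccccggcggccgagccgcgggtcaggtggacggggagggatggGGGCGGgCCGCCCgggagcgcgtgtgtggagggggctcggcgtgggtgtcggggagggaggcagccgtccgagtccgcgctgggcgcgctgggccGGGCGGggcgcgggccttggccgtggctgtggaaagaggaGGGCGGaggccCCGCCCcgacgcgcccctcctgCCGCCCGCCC
FBN2, chr5:128538246-128538495, minus strand: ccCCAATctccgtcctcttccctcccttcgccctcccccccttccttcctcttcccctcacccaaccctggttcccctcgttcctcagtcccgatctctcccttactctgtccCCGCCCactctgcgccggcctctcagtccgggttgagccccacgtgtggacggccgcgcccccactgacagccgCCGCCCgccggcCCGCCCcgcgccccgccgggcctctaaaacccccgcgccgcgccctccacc
COL7A1, chr3:48595330-48595579, minus strand: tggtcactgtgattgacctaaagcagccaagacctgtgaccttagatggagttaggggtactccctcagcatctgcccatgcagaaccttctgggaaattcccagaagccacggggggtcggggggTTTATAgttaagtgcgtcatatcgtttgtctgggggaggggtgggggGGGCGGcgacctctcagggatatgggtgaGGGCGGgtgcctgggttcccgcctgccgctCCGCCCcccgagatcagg
THBS1, chr15:39580829-39581078, plus strand: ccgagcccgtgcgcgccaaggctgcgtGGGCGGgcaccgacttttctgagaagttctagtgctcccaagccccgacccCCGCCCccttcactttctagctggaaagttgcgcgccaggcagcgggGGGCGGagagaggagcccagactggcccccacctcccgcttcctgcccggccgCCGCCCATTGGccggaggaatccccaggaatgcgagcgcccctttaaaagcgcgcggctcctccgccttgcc
COL4A5, chrX:108439588-108439837, plus strand: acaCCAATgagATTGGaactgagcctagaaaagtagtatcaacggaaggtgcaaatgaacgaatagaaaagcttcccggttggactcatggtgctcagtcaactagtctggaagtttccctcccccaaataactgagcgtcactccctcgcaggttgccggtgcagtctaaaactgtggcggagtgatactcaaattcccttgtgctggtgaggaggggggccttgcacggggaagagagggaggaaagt
GC boxes were in 5 of the 6 windows, with 7 matches in COL8A2, 4 in THBS1, 3 each in FBN2 and COL7A1 and 1 in COL5A3. Over the 35116 promoters of the table, 42.6% held a GC box within the same 250 bases. CCAAT matched once each in COL5A3, FBN2 and THBS1 and 2 times in COL4A5, and 32.0% of all promoters held it. TATAAA matched in COL7A1 alone among the 6, and in 10.7% of all promoters. A match describes the letters of the window and is not evidence of a bound site.

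The comparison asks which of these genes differ between CELF2-KD and control cells. No member passed the threshold: 0 of 42 had an adjusted p below 0.05 in edgeR, with Benjamini-Hochberg adjustment over all 15171 tested genes, where 0.877% of all tested genes did. DESeq2 called 9 of the 40 members it tested (6 higher and 3 lower in CELF2-KD cells), where it called 9.77% of all genes, and limma-voom called 0 of 42 and 0 of all 15171 genes. The 9 called by DESeq2 were COL5A3, COL9A3, COL5A2, COL8A2, COL1A1 and COL6A1, all higher, and SPARC, COL8A1 and THBS2, all lower. Leaving out control replicate 2 gave 6 of 45 (FBN2, COL8A2, COL9A3, COL6A3, COL5A2 and COL5A3, all higher), against 3.8% of all genes, and leaving out CELF2-KD replicate 1 gave 1 of 43 (COL5A3), against 2.31%. Without CELF2-KD replicate 2 the count was 0, beside 0.0444% of all genes, and without control replicate 1 it was 0, as it was over all genes. Median-ratio size factors gave 1 of 42 (1.39% of all genes), a minimum count of 50 gave 1 of 36 (1.45%), and no filter on low counts gave 15 of 53 (8.25%). At an unadjusted p below 0.05 there were 13 members, 10 higher and 3 lower in CELF2-KD cells, against a background of 22.1% of all tested genes (12.1% higher and 9.97% lower). The 2 libraries of CELF2-KD cells lay above both controls in 15 members and below both in 4, while 27.1% and 27.8% of all tested genes did so (54.9% in either direction). The median log2 fold change of the 42 was 0.22 (CELF2-KD over control), beside -0.0037 over all tested genes, and values ran from -1.65 (COL8A1) to 3.71 (COL20A1).

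**Figure D1:**
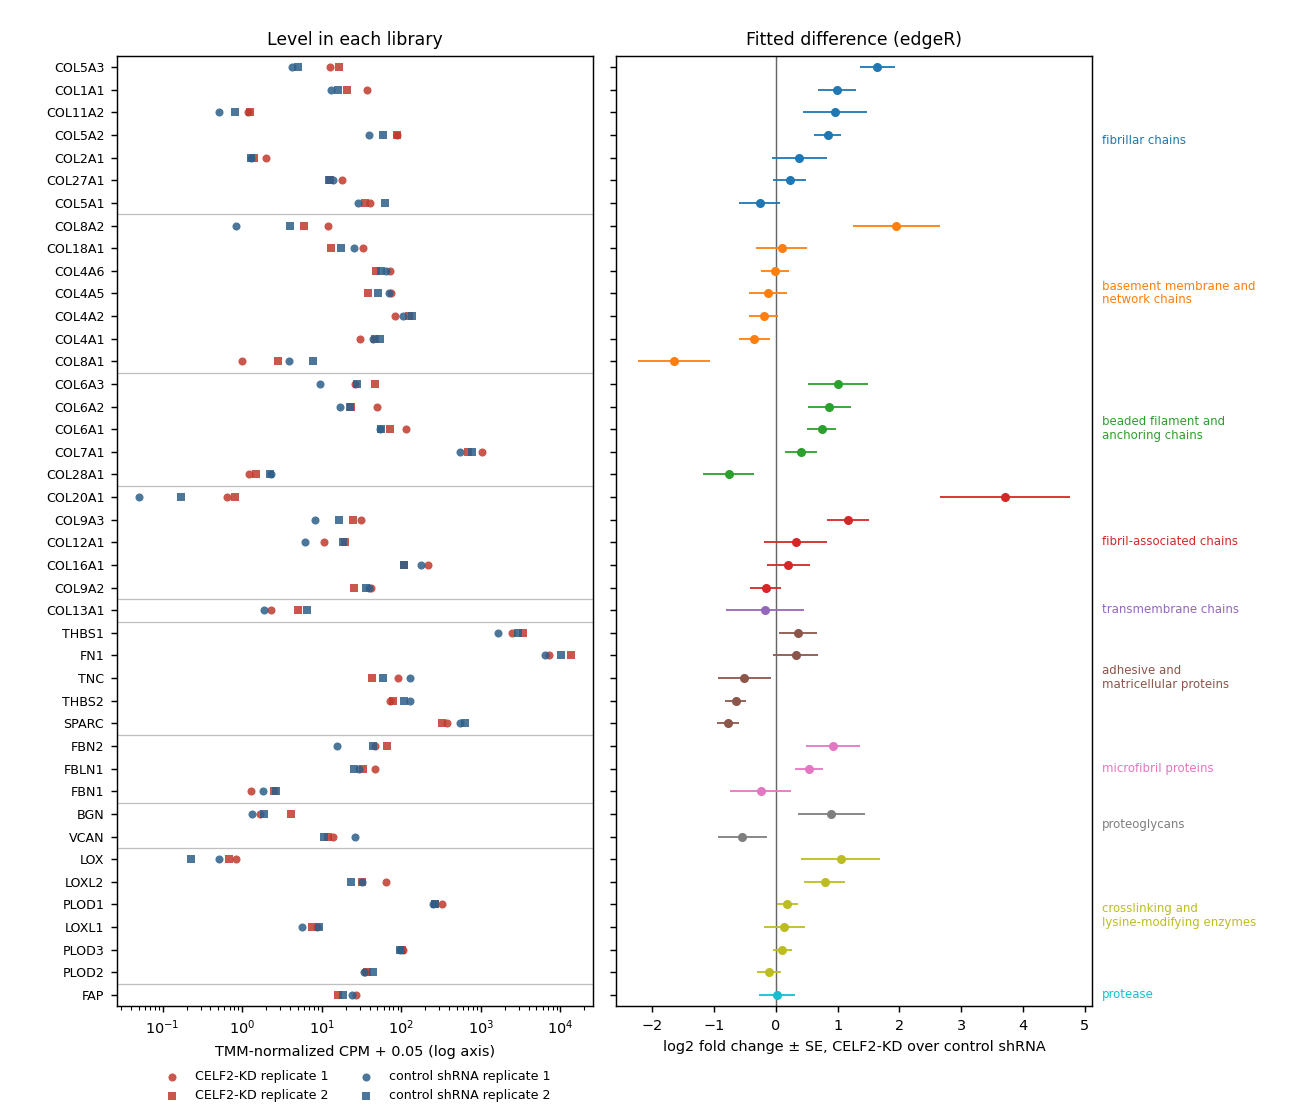
Levels of the 42 tested members in each library, as TMM-normalized CPM plus 0.05 on a log axis (left), and fitted log2 fold changes of CELF2-KD over control shRNA with the SE (right), grouped by role. COL5A3 has both CELF2-KD libraries above both control libraries, SPARC and THBS2 have both below, and FN1 has its libraries interleaved.

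Fibrillar chains had the highest median log2 fold change among the role groups with at least 3 tested genes. Of 11 fibrillar chain genes 7 were tested, 0 passed, 6 had a log2 fold change above 0 and the median was 0.84. COL5A3 (ENSG00000080573, chr19:9959561-10010471, minus strand, GRCh38), a minor chain of type V collagen, had 12.5 and 16.3 CPM in the CELF2-KD libraries, against 4.18 and 5.05 CPM in the control libraries. The groups did not overlap, and both CELF2-KD values were well above either control value. The fitted difference was 1.65 ± 0.29 (log2, SE), and its adjusted p of 0.0521 in edgeR was short of the threshold. With DESeq2's median-ratio size factors in the same fit the adjusted p was 0.0485 and with a minimum count of 50 it was 0.0497. It was 0.0265 without CELF2-KD replicate 1 and 0.0385 without control replicate 2, against 0.113 without CELF2-KD replicate 2 and 0.206 without control replicate 1. The log2 fold change stayed between 1.44 and 1.83 over these 4 fits. A 270-base stretch of COL5A3 exons lies opposite AC008742.1, and without a stated strand setting the reads of both cannot be told apart.

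COL5A2, the chain that pairs with COL5A1 in the common type V trimer, had 88.3 and 88.4 CPM in the CELF2-KD libraries, against 39.6 and 59.0 CPM in the control libraries. The CELF2-KD values were nearly equal and above both controls, with a log2 fold change of 0.84 ± 0.22 (SE, adjusted p = 0.0883). COL5A1 behaved otherwise, with 40.6 and 35.1 CPM in the CELF2-KD libraries inside the control values of 28.85 and 61.9 CPM (log2 fold change -0.26 ± 0.33, SE). COL1A1, the main chain of type I collagen, had 37.5 and 20.7 CPM in the CELF2-KD libraries, against 13.1 and 16.1 CPM in the control libraries. The groups did not overlap, but CELF2-KD replicate 1 carried most of the difference: the log2 fold change of 1.00 ± 0.31 (adjusted p = 0.122) was 0.51 without that library and 1.36 without CELF2-KD replicate 2. COL1A2, the partner chain of COL1A1, had 0 counts in every library, and so did COL3A1, COL11A1 and COL24A1. COL11A2, COL27A1 and COL2A1 had log2 fold changes of 0.96, 0.23 and 0.38, and COL11A2 and COL2A1 stayed below 2 CPM in every library.

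Among basement membrane and network chains, the 4 well-counted type IV chains differed little between the groups, while the 2 type VIII chains lay on opposite sides. Of the 11 genes 7 were tested and 0 passed, with a median log2 fold change of -0.12. COL8A2 had 11.9 and 5.90 CPM in the CELF2-KD libraries, against 0.787 and 3.98 CPM in the control libraries. COL8A1 had 0.938 and 2.74 CPM in the CELF2-KD libraries, against 3.86 and 7.84 CPM in the control libraries. Both chains belong to type VIII collagen, a short-chain network collagen, and in each of them the 2 groups did not overlap. The log2 fold changes were 1.95 ± 0.70 for COL8A2 and -1.65 ± 0.58 for COL8A1 (SE, adjusted p = 0.165 and 0.160, edgeR quasi-likelihood test). The COL8A2 value rested on control replicate 1: it was 3.50 without control replicate 2 (adjusted p = 0.0178) and 1.15 without control replicate 1 (adjusted p = 0.460). COL8A1 was -1.08 without CELF2-KD replicate 1, -2.63 without CELF2-KD replicate 2, -2.09 without control replicate 1 and -1.04 without control replicate 2.

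The type IV chains are read from head-to-head gene pairs. COL4A1 and COL4A2 start 126 bases apart on chromosome 13, and the nearest listed starts of COL4A6 and COL4A5 are 379 bases apart on chromosome X. COL4A2 had 84.4 and 126.7 CPM in the CELF2-KD libraries, against 105.4 and 136.8 CPM in the control libraries, and COL4A1 had 30.01 and 47.3 CPM in the CELF2-KD libraries, against 44.1 and 54.5 CPM in the control libraries. The groups overlapped in both genes, and the log2 fold changes were -0.20 ± 0.24 and -0.35 ± 0.25 (SE). COL4A5 and COL4A6 had log2 fold changes of -0.12 ± 0.31 and -0.0098 ± 0.22. COL18A1, whose C-terminal fragment is endostatin, had 0.094 ± 0.42.

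Partner chains were compared as ratios of counts within each library, which cancels the depth of the library. The COL5A1 to COL5A2 ratio was 0.460 and 0.397 in the CELF2-KD libraries, against 0.728 and 1.05 in the control libraries. The COL8A1 to COL8A2 ratio was 0.0788 and 0.464 in the CELF2-KD libraries, against 4.91 and 1.97 in the control libraries. Neither ratio overlapped between the groups. The COL4A1 to COL4A2 ratio varied least over the 4 libraries, and its groups did not overlap either, at 0.355 and 0.373 in the CELF2-KD libraries and 0.418 and 0.399 in the control libraries. The COL4A5 to COL4A6 ratio (1.03 and 0.797 in the CELF2-KD libraries, 1.09 and 0.926 in the control libraries) and the COL6A1 to COL6A2 ratio (2.31 and 3.04 in the CELF2-KD libraries, 3.19 and 2.46 in the control libraries) overlapped. The ratios were not tested.

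**Figure D2:**
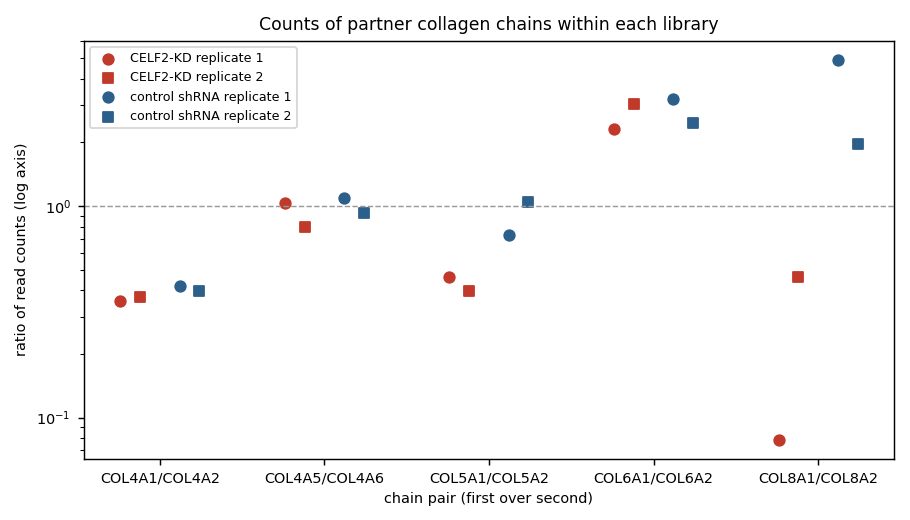
Ratio of read counts of 2 partner collagen chains (first over second) within each library, on a log axis, with the CELF2-KD libraries left of the control libraries. COL4A1/COL4A2 lies between 0.355 and 0.418 in all 4 libraries, and COL8A1/COL8A2 is below 1 in both CELF2-KD libraries and above 1 in both control libraries.

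Of the beaded filament and anchoring chains 5 of 7 were tested and 0 passed, with a median log2 fold change of 0.75. The 3 tested chains of type VI collagen, which forms a microfibril network around cells, all had higher means in CELF2-KD cells. COL6A1 had 113.6 and 71.6 CPM in the CELF2-KD libraries, against 53.8 and 56.5 CPM in the control libraries (log2 fold change 0.75 ± 0.24, SE, adjusted p = 0.128). COL6A2 had 49.1 and 23.5 CPM in the CELF2-KD libraries, against 16.9 and 23.0 CPM in the control libraries (0.87 ± 0.35, adjusted p = 0.205). In both genes CELF2-KD replicate 2 was the lower of the CELF2-KD libraries, and in COL6A2 it was close to control replicate 2. Without CELF2-KD replicate 1 the log2 fold changes were 0.38 and 0.25. With an offset for GC content in each library they were 0.51 for COL6A1 and 0.57 for COL6A2. COL6A3 had 26.5 and 47.3 CPM in the CELF2-KD libraries, against 9.37 and 27.7 CPM in the control libraries, so the groups overlapped (1.00 ± 0.49, adjusted p = 0.277). Its log2 fold change was 1.99 without control replicate 2 (adjusted p = 0.0274) and 0.40 without control replicate 1.

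COL7A1, the anchoring fibril collagen, was the most abundant collagen chain, both in CPM and per kilobase of exon. It had 1046 and 698.6 CPM in the CELF2-KD libraries, against 541.4 and 773.8 CPM in the control libraries. The groups overlapped, and the log2 fold change was 0.41 ± 0.26 (SE, adjusted p = 0.405). It was 0.095 without CELF2-KD replicate 1, 0.66 without CELF2-KD replicate 2, 0.16 without control replicate 1, 0.70 without control replicate 2 and 0.16 with the GC offset. COL7A1 took 51.1% and 47.0% of all collagen chain counts in the CELF2-KD libraries, against 42.6% and 49.8% in the control libraries. COL28A1 was low, with 1.18 and 1.43 CPM in the CELF2-KD libraries, against 2.25 and 2.20 CPM in the control libraries (log2 fold change -0.76 ± 0.42).

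Fibril-associated chains decorate the surface of collagen fibrils, and 5 of the 11 were tested. None passed, and the median log2 fold change was 0.32. COL9A3, a chain of type IX collagen, had 30.8 and 24.6 CPM in the CELF2-KD libraries, against 8.12 and 16.6 CPM in the control libraries. The groups did not overlap, and the log2 fold change was 1.17 ± 0.35 (SE, adjusted p = 0.109). It was 1.78 without control replicate 2 (adjusted p = 0.0224) and 0.73 without control replicate 1. COL9A2, of the same trimer, had no such difference (-0.16 ± 0.25), and COL9A1 had 0 counts in every library. COL20A1 had few reads, 12 and 18 in the CELF2-KD libraries, against 0 and 2 in the control libraries, so its fitted log2 fold change of 3.71 ± 1.05 (adjusted p = 0.0962) depends on the prior count. COL16A1 was the most abundant of the group, with 217.5 and 109.7 CPM in the CELF2-KD libraries, against 176.3 and 107.6 CPM in the control libraries. In COL16A1 both libraries numbered 1 lay above both numbered 2, whichever shRNA they carried, and the log2 fold change of 0.20 ± 0.35 was -0.36 without CELF2-KD replicate 1 and -0.060 with an offset for GC content. COL12A1, and COL13A1 of the transmembrane chains, had log2 fold changes of 0.32 ± 0.51 and -0.17 ± 0.63, with both libraries numbered 2 above both numbered 1.

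The adhesive and matricellular proteins, which bind cells and other matrix proteins, held the 2 members with the smallest p among those with lower values. SPARC (ENSG00000113140, chr5:151661096-151687165, minus strand), a collagen-binding glycoprotein, had 374.0 and 325.8 CPM in the CELF2-KD libraries, against 552.8 and 639.6 CPM in the control libraries. THBS2 (ENSG00000186340, chr6:169215780-169254044, minus strand), a thrombospondin that affects collagen fibril assembly, had 72.9 and 79.2 CPM in the CELF2-KD libraries, against 129.7 and 108.4 CPM in the control libraries. In both genes the groups were separated by more than either group's own range. The log2 fold changes were -0.77 ± 0.18 for SPARC and -0.65 ± 0.17 for THBS2 (SE, adjusted p = 0.0726 and 0.0925, edgeR quasi-likelihood test), short of the threshold, while DESeq2 gave adjusted p of 0.00775 and 0.0478. SPARC ranged from -0.88 to -0.64 and THBS2 from -0.76 to -0.52 as each library was left out. SPARC shares 381 exon bases with CLMAT3 on the opposite strand.

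FN1 and THBS1 were the 2 most abundant members on both the CPM and the per-kilobase scale. FN1, fibronectin, had 7160 and 13654 CPM in the CELF2-KD libraries, against 6441 and 10224 CPM in the control libraries. THBS1, thrombospondin 1, had 2502 and 3361 CPM in the CELF2-KD libraries, against 1644 and 2930 CPM in the control libraries. In both genes each library numbered 2 exceeded both numbered 1, and the groups overlapped. The log2 fold changes were 0.32 ± 0.36 for FN1 and 0.36 ± 0.31 for THBS1 (SE, adjusted p = 0.644 and 0.534). FN1 turned to -0.22 without CELF2-KD replicate 2. TNC, tenascin C, had 90.5 and 42.3 CPM in the CELF2-KD libraries, against 129.3 and 58.9 CPM in the control libraries (-0.51 ± 0.43), and POSTN had 0 counts in every library. Per kilobase of exon, FN1 averaged 601.0 CPM in CELF2-KD cells and 481.2 CPM in control cells, and THBS1 averaged 320.1 CPM in CELF2-KD cells and 249.7 CPM in control cells. SPARC averaged 72.4 CPM per kilobase in CELF2-KD cells and 123.4 in control cells, and COL7A1 averaged 78.8 in CELF2-KD cells and 59.4 in control cells. THBS1 shares 859 exon bases with genes on the opposite strand.

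FN1 also set the share of the transcriptome that the members took. The 63 genes held 1.31% (95% Wilson interval 1.31% to 1.32%) and 2.00% (2.00% to 2.01%) of all counts in the CELF2-KD libraries, against 1.07% (1.07% to 1.07%) and 1.53% (1.53% to 1.54%) in the control libraries. Without FN1 and THBS1 the shares were 0.332% and 0.258% in the CELF2-KD libraries, against 0.261% and 0.277% in the control libraries. The collagen chains alone held 0.208% (0.206% to 0.210%) and 0.152% (0.151% to 0.154%) in the CELF2-KD libraries, against 0.127% (0.126% to 0.129%) and 0.148% (0.146% to 0.150%) in the control libraries. Both CELF2-KD shares of the collagen chains were above both control shares, but CELF2-KD replicate 2 was close to control replicate 2. Reads are not independent molecules here, so the intervals cover counting error only.

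Microfibril proteins carry elastic fibers and store growth factors, and 3 of the 4 were tested. FBN2, fibrillin 2, had 46.4 and 66.7 CPM in the CELF2-KD libraries, against 15.7 and 44.3 CPM in the control libraries. The groups were separated, although CELF2-KD replicate 1 was close to control replicate 2, and the log2 fold change was 0.92 ± 0.44 (SE, adjusted p = 0.266). It was 1.86 without control replicate 2 (adjusted p = 0.0178) and 0.35 without control replicate 1. FBLN1, fibulin 1, had 46.7 and 32.6 CPM in the CELF2-KD libraries, against 29.3 and 25.4 CPM in the control libraries (0.54 ± 0.23, adjusted p = 0.222). It was 0.26 without CELF2-KD replicate 1 and 0.77 without CELF2-KD replicate 2. FBN1 stayed below 3 CPM in every library (-0.24 ± 0.49). Of the proteoglycans, BGN (biglycan) had 1.63 and 4.13 CPM in the CELF2-KD libraries, against 1.29 and 1.84 CPM in the control libraries, and VCAN (versican) had 13.8 and 11.9 CPM in the CELF2-KD libraries, against 26.5 and 10.8 CPM in the control libraries. Both overlapped between the groups.

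The lysyl hydroxylases, which modify lysines in collagen, had values close to 0. PLOD1, PLOD2 and PLOD3 had log2 fold changes of 0.19 ± 0.18, -0.10 ± 0.19 and 0.11 ± 0.16 (SE). PLOD1 had 324.9 and 266.3 CPM in the CELF2-KD libraries, against 248.9 and 269.6 CPM in the control libraries. PLOD3 had 106.2 and 102.0 CPM in the CELF2-KD libraries, against 96.1 and 97.1 CPM in the control libraries, and turned to -0.082 with an offset for GC content. Among the lysyl oxidases, which start crosslinking outside the cell, LOXL2 had 64.5 and 32.4 CPM in the CELF2-KD libraries, against 32.4 and 23.35 CPM in the control libraries (0.79 ± 0.33, adjusted p = 0.217). CELF2-KD replicate 2 and control replicate 1 were almost equal, and the log2 fold change was 0.23 without CELF2-KD replicate 1. LOX was below 1 CPM in every library and LOXL1 had a log2 fold change of 0.14 ± 0.33. LOXL4 had 24 counts in CELF2-KD replicate 1 and 0 counts in the other 3 libraries. FAP, a membrane protease of activated fibroblasts, had 27.3 and 16.0 CPM in the CELF2-KD libraries, against 23.85 and 18.65 CPM in the control libraries (0.023 ± 0.29).

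The 21 members that did not pass the filter had at most 24 counts in any library. Of these, 10 had 0 counts in every library: COL1A2, COL3A1, COL6A5, COL6A6, COL9A1, COL10A1, COL11A1, COL15A1, COL24A1 and POSTN. Most of the others (COL4A3, COL14A1, COL19A1, COL22A1, COL23A1, COL25A1 and COL26A1) had at most 6 counts in any library. LOXL4 had the 24 counts in CELF2-KD replicate 1 given above. COL4A4 had 8 and 19 counts in the CELF2-KD libraries, against 4 and 2 in the control libraries. FBLN2 had 12 and 7 counts in the CELF2-KD libraries, against 4 and 2 in the control libraries, and COL21A1 had 12 and 1 counts in the CELF2-KD libraries, against 1 and 0 in the control libraries. The fit without a filter called LOXL4 and gave COL4A4 and COL21A1 an unadjusted p below 0.05. The LOXL4 reads come from 1 library, and the others rest on few reads.

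The members were richer in G and C than other genes, which the rule did not use. The median GC content of the longest transcript was 58.4% over the 42 tested members, beside 48.6% over 15099 tested genes with a transcript. Across the members, the log2 fold change went with GC content (Pearson r = 0.33, Spearman rho = 0.33, n = 42 genes in the same 4 libraries, which are not independent replicates). Over all tested genes the same correlation was 0.26 (Pearson) and 0.27 (Spearman). Of the 19 members with at least 60% GC, 16 had a log2 fold change above 0 (median 0.41), and of the 23 below 60% GC, 11 did (median -0.0098). With an offset for GC content in each library the median over the 42 was 0.14 instead of 0.22, 0 members were called (1.52% of all genes were), and 12 of the 19 GC-rich members had a log2 fold change above 0. COL5A3 then had 1.44 and SPARC -0.74. Over all genes, 92 of the 133 called genes (69.2%) were higher in CELF2-KD cells without the offset, and 125 of 231 (54.1%) with it. The source of the relation was not tested.

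**Figure D3:**
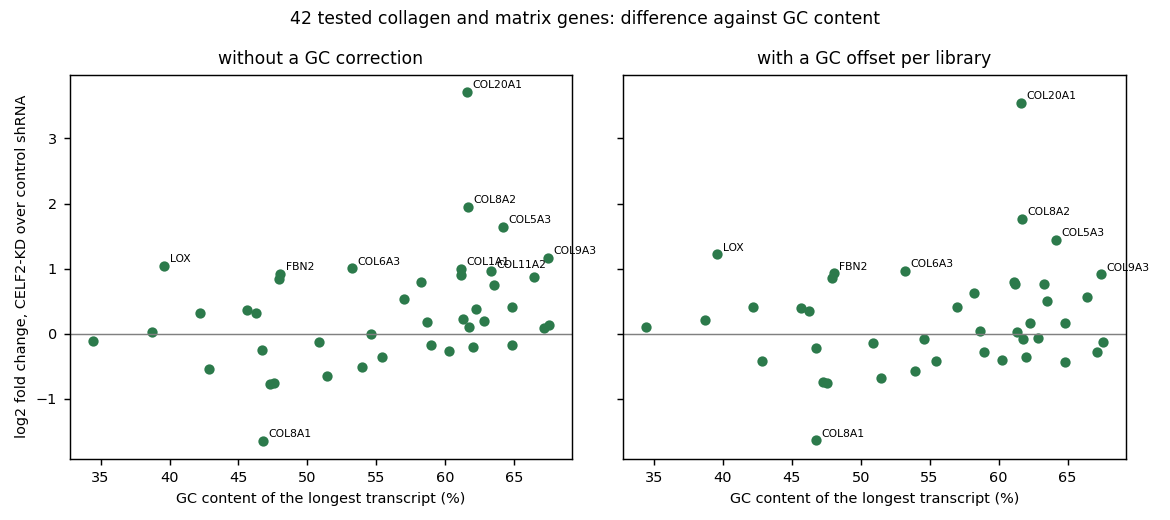
Log2 fold change (CELF2-KD over control shRNA) of the 42 tested members against the GC content of the longest transcript, without (left) and with (right) an offset for GC content in each library. The medians are 0.22 without and 0.14 with the offset, and COL5A3, COL8A2 and COL20A1 stay above 1 in both.

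Genes that work with the members were counted from 3 lists. Of 31 genes of collagen maturation, which hydroxylate, fold, export and trim the chains, 26 were tested and 1 rose (0 fell), beside 0.606% of all tested genes that rose. That gene was P3H2 (chr3:189956728-190122437, minus strand), a prolyl 3-hydroxylase that acts on basement membrane collagens. P3H2 had 9.87 and 9.69 CPM in the CELF2-KD libraries, against 2.47 and 1.72 CPM in the control libraries, a log2 fold change of 2.20 ± 0.34 (SE, adjusted p = 0.0483 by edgeR). The CELF2-KD values were nearly equal and at least 3 times any control value. The adjusted p was 0.107 without CELF2-KD replicate 2 and 0.138 without control replicate 1, with log2 fold changes of 2.21 and 2.49, and limma-voom gave 0.0560. P4HA2, a catalytic subunit of the prolyl 4-hydroxylase, had 85.8 and 88.9 CPM in the CELF2-KD libraries, against 45.7 and 47.6 CPM in the control libraries (0.91 ± 0.16, adjusted p = 0.0525). FKBP10, a collagen chaperone of the endoplasmic reticulum, had 69.98 and 64.9 CPM in the CELF2-KD libraries, against 39.8 and 33.5 CPM in the control libraries (0.88 ± 0.18, adjusted p = 0.0616). P3H4, which works in a lysyl hydroxylation complex, had 52.6 and 47.5 CPM in the CELF2-KD libraries, against 28.7 and 31.7 CPM in the control libraries (0.73 ± 0.18, adjusted p = 0.0788). These 3 did not pass in edgeR but did in DESeq2 (adjusted p = 0.00163, 0.00452 and 0.0297), and in each of them both CELF2-KD libraries lay above both control libraries. P4HA2 shares 548 exon bases with P4HA2-AS1. It passed with the GC offset (adjusted p = 0.0440) and with the median-ratio size factors (0.0485), but not with limma-voom (0.0560). The median over the 26 was 0.25. At an unadjusted edgeR p below 0.05, 7 were higher and 1 (P3H3) was lower, beside 12.1% and 9.97% of all tested genes. Both CELF2-KD libraries lay above both controls in 12 and below both in 3 (P3H3, TLL1 and KDELR2), beside 27.1% and 27.8%. DESeq2 called 6 of the 25 it tested, all higher, beside 9.77% of all genes.

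Of 19 receptors for collagen and fibronectin, 18 were found under those symbols, 12 were tested and 0 passed (2 at an unadjusted p below 0.05, beside 22.1% of all tested genes, and 1, DDR1, by DESeq2, beside 9.77%), with a median log2 fold change of 0.21. DDR1, a receptor tyrosine kinase for collagen, had 1163 and 747.2 CPM in the CELF2-KD libraries, against 500.5 and 494.8 CPM in the control libraries (0.94 ± 0.24, SE, adjusted p = 0.0831). ITGA4, an integrin subunit that binds fibronectin, was below 1 CPM in every library, and the integrins ITGB6 and ITGA5 had log2 fold changes of 0.56 ± 0.25 and 0.39 ± 0.21. Both CELF2-KD libraries lay above both controls in 6 of the 12 receptors, these 4 among them, beside 27.1% of all tested genes. Without CELF2-KD replicate 1 the log2 fold changes were 0.60 for DDR1 and 0.17 for ITGB6, and without control replicate 1 it was 0.15 for ITGA5.

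Of 47 other matrix genes 23 were tested and 0 passed, while 10 were higher at an unadjusted p below 0.05 (12.1% of all tested genes were) and DESeq2 called 6 (9.77% of all genes). The median log2 fold change was 0.76, and 22 of the 23 values were above 0, beside 7532 of all 15171 tested genes. Both CELF2-KD libraries lay above both controls in 15 of the 23 and below both in 1, beside 27.1% and 27.8% of all tested genes. NID1 and NID2, the nidogens that link laminin to type IV collagen, had the smallest p together with LTBP1 and ELN. NID1 had 12.2 and 12.7 CPM in the CELF2-KD libraries, against 0.787 and 2.85 CPM in the control libraries (2.83 ± 0.55, SE, adjusted p = 0.0575). NID2 had 3.997 and 5.22 CPM in the CELF2-KD libraries, against 0.965 and 0.535 CPM in the control libraries (2.57 ± 0.46, adjusted p = 0.0525). Both nidogens passed without CELF2-KD replicate 1 (adjusted p = 0.0344 for NID1 and 0.0327 for NID2), and NID1 also without control replicate 2 (0.00636). Neither passed without CELF2-KD replicate 2 (0.118 for NID1 and 0.114 for NID2) or without control replicate 1 (0.142 and 0.143). NID2 shares 1915 exon bases with RTRAF on the opposite strand. LTBP1, which tethers latent TGF-beta to the matrix, had 22.3 and 16.2 CPM in the CELF2-KD libraries, against 9.51 and 9.98 CPM in the control libraries (0.98 ± 0.26). ELN, elastin, had 2.02 and 2.91 CPM in the CELF2-KD libraries, against 0.107 and 0.654 CPM in the control libraries (2.82 ± 0.75).

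**Figure D4:**
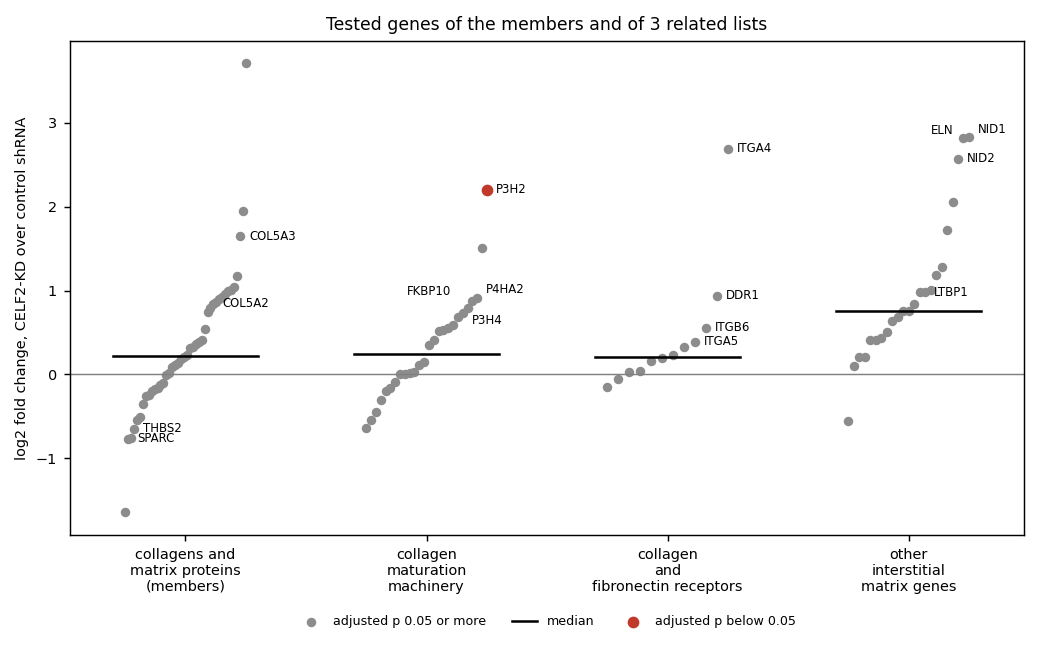
Log2 fold changes (CELF2-KD over control shRNA) of the tested members and of the tested genes in 3 related lists, sorted within each list, with the 4 smallest p of each list named and medians as black lines. Medians are 0.22, 0.25, 0.21 and 0.76 from left to right, and P3H2 is the 1 gene with an adjusted p below 0.05.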

How the data were processed

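PolyA RNA of 4 libraries of SCC13 cells was sequenced from TruSeq preparations, per the labels' protocols. The table deposited by the authors holds raw counts for each Ensembl gene in each of the 4 libraries. The submitters' processing notes name HISAT2, edgeR and the build GRCh38. The sources used here do not give the counting program, annotation release, strand setting or treatment of shared reads. Groups came from the sample titles.

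The test was the quasi-likelihood test of edgeR 4.0.16 in R 4.3.3. It used TMM normalization, a filterByExpr minimum count of 10 (CELF2 kept whatever its counts) and a Benjamini-Hochberg threshold of 0.05 across the tested genes. The common biological coefficient of variation came to 21.6%. Printed CPM levels are scaled by TMM, and SEs come from the fit. The alternatives used DESeq2 1.42.0, limma-voom (limma 3.58.1) and other edgeR settings. GENCODE v29 (GRCh38) gave positions, exon lengths and GC content for all 63 members. Genes whose exons overlap another gene (16 of the 42 tested members) have uncertain counts. The members and lists were chosen with earlier results of these data known. Any tested member could be named; full values went to the 15 with the smallest p, the 8 most abundant and up to 4 genes of each related list, and other members were described by role.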

Additional observations from a re-analysis of the deposited data

How the results depend on the processing

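Of 240 log2 fold changes of 22 named members under the alternatives, 187 kept their direction and side of the threshold, 45 kept their direction and passed it, and 8 turned sign. Over all genes 133 were called; the count was 211 with median-ratio size factors, 2139 without a filter, 1354 with DESeq2, 0 with limma-voom, 231 with the GC offset and 0 to 616 with 1 library left out. For the members, 0 became 1 with median-ratio size factors, 15 without a filter, 1 at a minimum count of 50, 9 with DESeq2 and 0 to 6 with 1 library left out, and their median of 0.22 ran from 0.11 to 0.43. For collagen maturation, 1 became 2, 6, 2, 6, 0 (limma-voom) and 2 (GC offset) in that order of settings, and 0 to 2 with 1 library left out. For receptors, 0 became 2 without a filter and 1 with DESeq2. For other matrix genes, 0 became 1, 11, 1 and 6, and 0 to 2 with 1 library left out.

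With 1 library left out, log2 fold changes ran from -0.0066 to 0.85 for THBS1, -0.22 to 0.72 for FN1, -0.52 to 0.073 for COL4A2 and -0.36 to 0.61 for COL16A1. With the GC offset COL16A1 was -0.060 and PLOD3 was -0.082. The cause was not tested.

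Libraries share replicate numbers 1 and 2 across the groups. The difference of replicate 1 minus 2 correlated between the groups at 0.20 over all tested genes and 0.51 over the 42 members, but with 2 pairs the numbers were not taken to pair the libraries. With a replicate block, 1579 genes were called over all (10.4%), 13 members (10 higher and 3 lower), 6 maturation genes, 2 receptors and 9 other matrix genes. With 2 libraries per group, and at most 24 counts per library in the untested members, small differences can go undetected.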
